A study of Mus musculus with 22 samples.

Results

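The prostaglandin genes described here were 10 genes taken by symbol from the 23453 genes of the count table. They comprised the receptor genes *Ptgfr*, *Ptger1*, *Ptger2* and *Ptger4*, the cyclooxygenase genes *Ptgs1* and *Ptgs2*, the synthase genes *Ptges*, *Ptges3* and *Ptgds*, and *Ptgfrn*, whose membrane protein binds the PGF2α receptor. Each of the 10 had at least 1 read somewhere in the 22 cells. Of these, 8 had reads in 5 or more cells and entered the comparisons between types, and *Ptger2* and *Ptger4* are given by their reads.

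The cells were single astrocytes from primary cultures of the cortex of C57BL/6 pups at P0-P1. Each cell had been imaged with a calcium dye during exposure to ethanol (EtOH), assigned to a response type and aspirated for RNA-seq, giving 6 S-type (slow signal), 6 T-type (transient signal), 5 M-type (mixed signal) and 5 NR cells (No Response). The types shared strain, culture method and EtOH exposure, so NR cells were non-responding cells and not an unexposed control. As a model, the cultures had been grown in serum that was withdrawn before imaging, and shaken and treated with cytosine arabinoside to remove cells such as microglia. A cell is named below by its type and its number in order of deposit. The study's text names 1 EtOH dose for the cells and isolation soon after the signal, but it also compares cells collected early and later after EtOH. The labels tie no animal, culture or time to a cell, so the collection time of each cell is unknown and each type was taken as 1 sample. No test between types could be made, and every interval covers counting error only.

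Prostaglandins are made when phospholipases free arachidonic acid from membranes, cyclooxygenases turn it into PGH2, and terminal synthases turn PGH2 into PGE2, PGD2, PGF2α, prostacyclin or thromboxane. Each product acts on its own G protein-coupled receptors, of which the PGF2α receptor and EP1 raise intracellular calcium while EP2 and EP4 raise cyclic AMP. In the brain, COX-1 is known as the constitutive enzyme of microglia, COX-2 as the inducible enzyme of neurons and glia, and astrocytes as both a source and a target of PGE2.

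The cells differed in depth, from 2937786 to 22131076 reads with a median of 16965582, and in genes with a read, from 6319 to 13070. T-type cells 2 and 3 stood apart, with 6319 and 7442 genes and size factors of 0.276 and 0.183 against 0.548 to 2.31 in the others, so 1 read weighed most in these cells. No 2 cells had identical counts. Astrocyte markers were high in every cell, at 5462 to 24400 CPM (reads scaled to the depth of the cell) summed over 14 genes, led by *Vim*, *Fabp7* and *Slc1a3*, and all 14 had reads. Microglia markers (18 genes, led by *Laptm5*, *Mpeg1* and *Ctss*) ranged from 0.792 to 263 CPM in NR cells and from 0 to 142 CPM in T-type cells, but only from 0 to 9.60 CPM in S-type and from 0.420 to 4.94 CPM in M-type cells.

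*Ptges3* and *Ptgfrn* were read in all 22 cells, and *Ptgs1* and *Ptgs2* in 15 each. *Ptgfr* was read in 13 cells, *Ptger1* in 11, *Ptgds* in 9, *Ptges* in 6, *Ptger4* in 4 and *Ptger2* in 1. With a limit of 10 reads, the numbers became 22 for *Ptges3*, 20 for *Ptgfrn*, 13 for *Ptgs2*, 8 for *Ptgfr*, 6 for *Ptgs1*, 5 for *Ptgds* and 4 for *Ptges*, and none of the 3 EP receptor genes had 10 reads in any cell. NR cells had reads of the most genes, 6 to 8 of the 10 with a median of 7, and T-type cells of the fewest, 2 to 6 with a median of 4. At 10 or more reads the same count was 5 to 6 genes in NR cells and 1 to 3 in T-type cells, while S-type cells had 2 to 7 and M-type cells 2 to 4. Of all genes, 7415 to 11476 had 10 or more reads in NR cells and 4387 to 8356 in T-type cells, so T-type cells had fewer genes at this limit in general. Their part in the counts of prostaglandin genes was not tested. T-type cells 5 and 6, which had 19279519 and 17849353 reads against 15057892 to 19930655 in NR cells, had 2 prostaglandin genes each at 10 or more reads, and 6728 and 8356 of all genes.

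**Figure D1:**
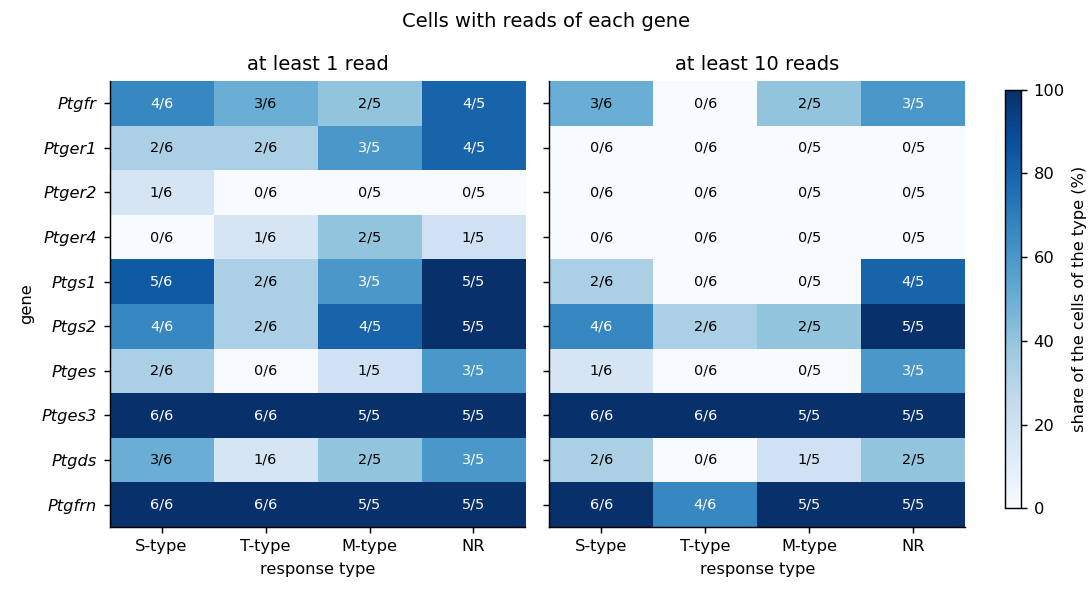
Number of cells of each response type (columns) with at least 1 read (left) and at least 10 reads (right) of each of the 10 genes (rows), with colour for the share of the cells of the type in percent. *Ptges3* was read in every cell, *Ptges* in 0 of 6 T-type cells, and *Ptgfr* reached 10 reads in 0 of 6 T-type cells against 3 of 6 S-type cells.

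Levels of genes were compared per kilobase of exon, where a level is the average, over the cells of a type, of counts divided by size factors. Averaged over the 4 types, *Ptges3* stood at 1959 normalized counts per kilobase, *Ptgfrn* at 74.9, *Ptgs2* at 42.7, *Ptgs1* at 18.1, *Ptgfr* at 17.6, *Ptges* at 10.1 and *Ptgds* at 3.69. *Ptger1*, *Ptger4* and *Ptger2* stood at 0.0757, 0.0699 and 0.00490. *Ptgs1* and *Ptgfr* were close, and their order differed between types: per kilobase, *Ptgs1* led in NR cells at 60.4 against 21.6, and *Ptgfr* in S-type cells at 33.1 against 11.4.

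*Ptgfr* encodes the PGF2α receptor, a Gq-coupled receptor that releases calcium from internal stores. It lies at chr3:151796502-151837630 on the minus strand of GRCm38, with 4 exon blocks. The S-type cells held 1613 of its reads (95% exact Poisson interval 1535 to 1694) and the T-type cells 7 (2.81 to 14.4). In the S-type cells, from 1 to 6, its normalized counts were 0, 0, 4.26, 988, 12.6 and 343. In the T-type cells they were 5.63, 0, 0, 0, 1.30 and 0.641, from 4 reads in cell 1, 2 in cell 5 and 1 in cell 6. The T-type values were thus all low, but the 2 S-type cells without a read kept the types overlapping.

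M-type and NR cells resembled neither in full. The M-type values were 0, 0, 461, 0 and 63.9, and the NR values 571, 47.6, 114, 0.598 and 0. At least 10 reads were found in 3 of 6 S-type, 2 of 5 M-type and 3 of 5 NR cells, and in 0 of 6 T-type cells. The mean level was 225 in S-type (SD over cells 398), 147 in NR (SD 242), 105 in M-type (SD 201) and 1.26 in T-type cells (SD 2.20).

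T-type against S-type was the contrast for which the study named *Ptgfr*, on these same cells, so its size is a description and not an independent result. The log2 ratio was -7.48 (95% interval -8.89 to -6.37), a 178-fold lower level in T-type cells, and it ran from -9.18 without T-type cell 1 to -5.83 without S-type cell 4, which held 73.3% of the S-type level. As a mean of log2(normalized count + 1) over cells, which weighs a single high cell less, the difference was -3.31, where the median of all genes was -1.09. Against NR cells, the T-type level was lower by a log2 ratio of -6.86 (-8.28 to -5.76), from -8.56 to -5.01 with any 1 cell left out.

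For S-type against NR, the ratio of 0.62 had no stable direction. It was -1.03 without S-type cell 4 and 2.47 without NR cell 1, which held 570.6 normalized counts. M-type against NR was -0.48, with -3.20 without M-type cell 3 and 1.37 without NR cell 1. In the order of levels, the neighbours S-type, NR and M-type did not differ beyond the spread between their cells. Without the 4 cells that carried over 100 CPM of microglia markers, NR cell 1 among them, the ratios were 1.97 and 0.88. The NR level then came from NR cells 3 and 5 alone, at 114 and 0 normalized counts.

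The genes of the PGE2 receptors were scarcely read. *Ptger1* (EP1) had 13 reads in 11 cells, at most 2 in a cell, with 4 reads each in NR and M-type cells, 3 in S-type and 2 in T-type cells. The use of strand in counting is not given in the sources used here, and the gene to which these few reads belong is uncertain. *Ptger2* (EP2, chr14:44988195-45003820) had a single read, in S-type cell 3. The other types had none, which allows up to 0.0336 CPM in NR, 0.0290 in M-type and 0.0401 in T-type cells.

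*Ptger4* (EP4, chr15:5206661-5244187) had 12 reads: 2 in T-type cell 1, 2 and 1 in M-type cells 2 and 4, and 7 in NR cell 3. It overlaps *Ttc33* and *Gm15937* on the other strand over 16.5% of its exon bases. Among the other prostanoid receptors, *Ptger3* (EP3) had 249 reads, all in NR cell 2. *Gpr44*, which encodes the DP2 receptor for PGD2, had 7 reads in 4 cells, and *Ptgdr*, *Ptgir* and *Tbxa2r*, the receptors of PGD2, prostacyclin and thromboxane, had 0 in all 22. None of these 5 genes was read in 5 cells, so that *Ptgfr* was the prostanoid receptor gene with the most reads, 3935, and the only one of the 9 to reach 10 reads in more than 1 cell.

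*Ptgs1* and *Ptgs2* encode COX-1 and COX-2, which carry out the same committed step of the pathway. *Ptgs1* lies at chr2:36230426-36252272 and *Ptgs2* at chr1:150100031-150108227, both on the plus strand. The sequences before their starts (RefSeq, GRCm38.p6, plus strand, 5′ to 3′) are shown because the pair shares this step and is known for different control. The windows are chr2:36230176-36230425 for *Ptgs1* and chr1:150099781-150100030 for *Ptgs2*. Capitals mark matches, on either strand, to the TATA box (TATAAA), the CRE core (TGACGT), the GC box (GGGCGG) or a C/EBP-type motif (TTGCNNAA).
Ptgs1: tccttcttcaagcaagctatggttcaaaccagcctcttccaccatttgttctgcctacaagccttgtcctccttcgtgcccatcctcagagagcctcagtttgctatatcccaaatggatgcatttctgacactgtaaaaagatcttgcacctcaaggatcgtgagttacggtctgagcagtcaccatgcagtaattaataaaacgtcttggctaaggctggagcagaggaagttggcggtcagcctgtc
Ptgs2: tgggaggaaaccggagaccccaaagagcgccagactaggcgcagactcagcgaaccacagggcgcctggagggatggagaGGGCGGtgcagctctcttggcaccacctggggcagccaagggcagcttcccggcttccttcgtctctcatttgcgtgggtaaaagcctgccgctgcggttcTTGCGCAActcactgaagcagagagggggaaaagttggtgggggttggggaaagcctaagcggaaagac
The *Ptgs2* window held a GC box starting 170 bases and a C/EBP-type match starting 69 bases before the start, the latter read alike on both strands, and the *Ptgs1* window held none of the 4. Of 32851 promoter windows of this length, 12.37% held a TATAAA match, 6.47% a TGACGT match, 32.74% a GGGCGG match and 9.56% a TTGCNNAA match. A match describes these letters only, and binding was not measured.

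*Ptgs1* was concentrated in NR cells. Its normalized counts in NR cells 1 to 5 were 124, 427, 0.719, 142 and 478. In the S-type cells they were 7.99, 179, 0, 76.2, 2.35 and 0.742. No T-type cell exceeded 11.3 and no M-type cell 1.88, and 4 T-type and 2 M-type cells had no read. Thus 4 of 5 NR cells lay above every T-type and every M-type cell, while the single read of NR cell 3 kept the types overlapping.

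The mean *Ptgs1* level was 234 in NR cells, 44.4 in S-type cells, 2.18 in T-type cells and 0.773 in M-type cells. The log2 ratio to NR was -8.24 for M-type (-9.57 to -7.19), -6.75 for T-type (-7.89 to -5.82) and -2.40 for S-type (-2.60 to -2.21). With any 1 cell left out these ran from -8.88 to -7.81, from -9.33 to -6.31 and from -3.75 to -1.97, so that each stayed past 2-fold. T-type against S-type was -4.35, from -6.93 to -3.001. The neighbouring T-type and M-type levels, from 9 and 7 reads, did not differ beyond their spread.

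Microglia markers moved with *Ptgs1* in part of these cells. NR cells 1, 2 and 4 had 205, 752 and 238 *Ptgs1* reads beside 106, 132 and 263 CPM of microglia markers, with reads of 15, 17 and 13 of the 18 markers, among them *Cx3cr1* and *Csf1r*. NR cell 5 had 516 *Ptgs1* reads beside 0.792 CPM from 2 markers, and S-type cell 2 had 11.6 CPM of *Ptgs1* beside 0.210 CPM. T-type cell 1 had reads of 17 of the 18 markers, at 35.6 CPM, and 8 of the 9 *Ptgs1* reads of its type. T-type cell 4 had 142 CPM of microglia markers, from 11 markers, and 1 *Ptgs1* read. T-type cell 2 had 52.8 CPM from 3 markers and no *Ptgs1* read. Without the 4 cells above 100 CPM of microglia markers, the *Ptgs1* ratio to NR was -8.28 for M-type, -6.73 for T-type and -2.43 for S-type. The NR level then rested on NR cell 5, which held 99.8% of it, with NR cell 3 as the only other cell.

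**Figure D2:**
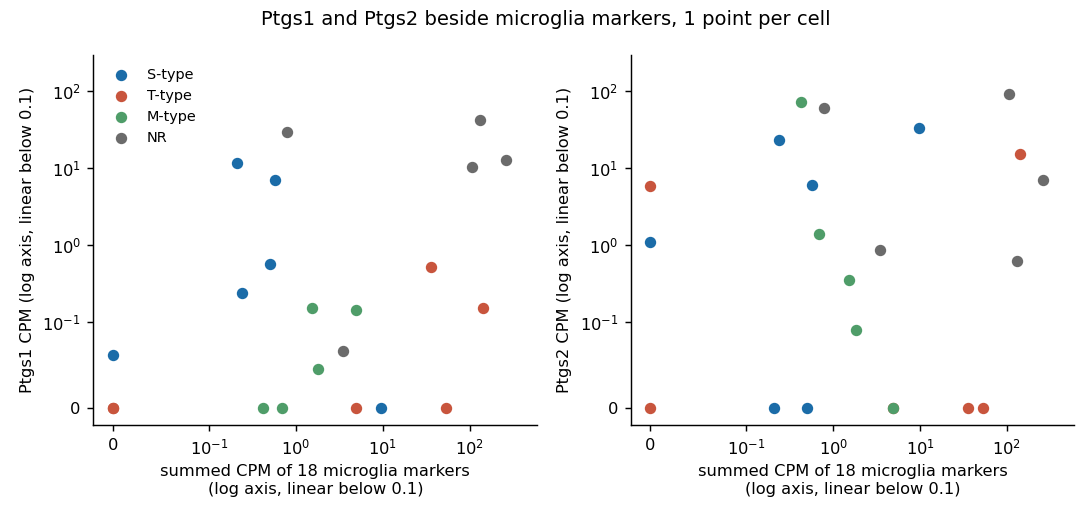
CPM of *Ptgs1* (left) and *Ptgs2* (right) against the summed CPM of 18 microglia markers, with 1 point per cell coloured by response type and both axes logarithmic above 0.1; points at 0 on both axes overlie each other. For *Ptgs1*, 3 NR cells lay at 106 to 263 CPM of microglia markers and NR cell 5 at 0.792 CPM, all above 10 CPM of *Ptgs1*.

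*Ptgs2* was spread more widely. The NR cells had 1102, 6.24, 9.35, 79.5 and 982 normalized counts, the M-type cells 0, 954, 14.1, 3.63 and 0.864, and the S-type cells 0, 0, 328, 63.9, 231 and 13.4. Of the T-type cells, cells 3 and 4 had 92.7 and 186.1 and the other 4 had no read. Besides *Ptges3* and *Ptgfrn*, it was the only gene of the 10 with 10 or more reads in all 5 NR cells. High cells were few in every type and the types overlapped.

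The mean *Ptgs2* level was 436 in NR, 194 in M-type, 106 in S-type and 46.5 in T-type cells. The log2 ratio to NR was -3.23 for T-type (-3.55 to -2.93) and -2.04 for S-type (-2.15 to -1.93), and stayed past 2-fold with any 1 cell left out, from -4.55 to -2.53 and from -2.82 to -1.34. M-type against NR was -1.16 with all cells, -6.55 without M-type cell 2, which held 98.1% of the M-type level, and -0.47 without NR cell 1. T-type against S-type was -1.19, but -0.41 without S-type cell 3 and -2.52 without T-type cell 4, the T-type cell with 142 CPM of microglia markers. *Ptgs1* and *Ptgs2* were read in 15 cells each and together in 11, all 5 NR cells among them. Over the 22 cells Spearman's rho was 0.11, and 5 cells had 10 or more reads of both, of 6 with *Ptgs1* and 13 with *Ptgs2*.

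**Figure D3:**
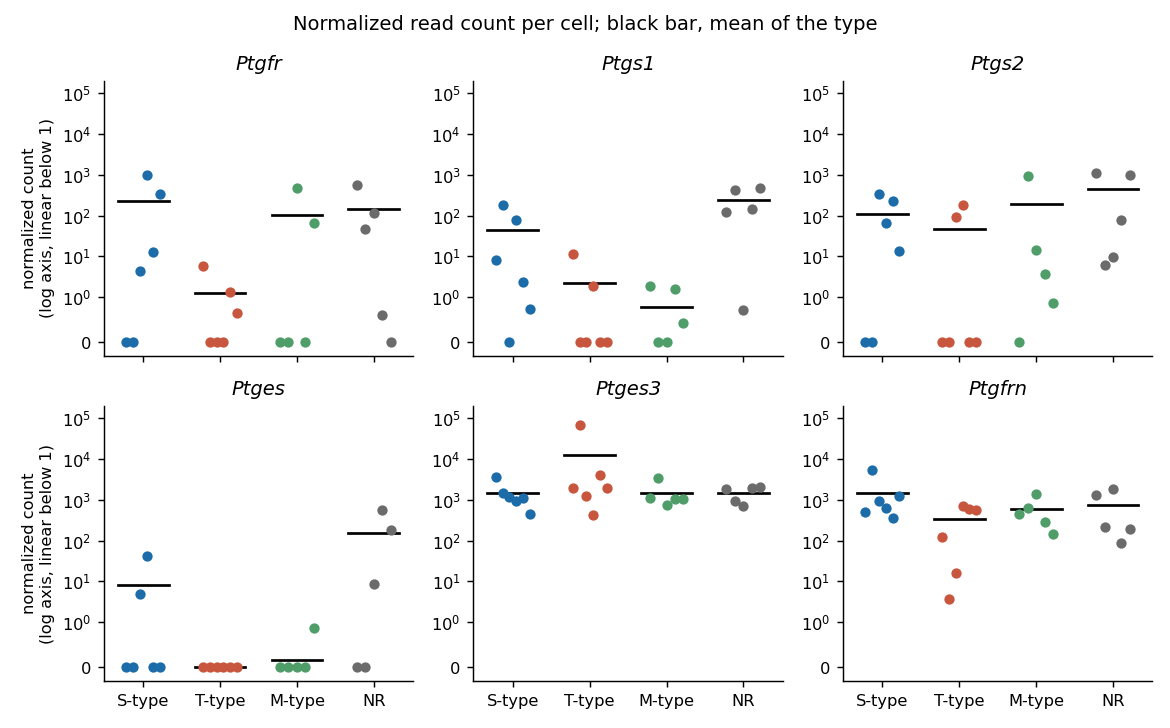
Normalized read count of *Ptgfr*, *Ptgs1*, *Ptgs2*, *Ptges*, *Ptges3* and *Ptgfrn* in each cell (points, by response type) on an axis that is logarithmic above 1, with a black bar at the mean of the type. The *Ptges3* mean of the T-type lay above 5 of its 6 cells, at 12972, because cell 2 stood at 68071.

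*Ptges* encodes the microsomal PGE2 synthase that is usually coupled to COX-2 (chr2:30889471-30929863, minus strand). Its 1211 reads came from 6 cells. In NR cells 3, 4 and 5 it had 12, 945 and 195 reads, or 8.63, 565 and 181 normalized counts, and in NR cells 1 and 2 none. S-type cells 3 and 4 had 8 and 49 reads, M-type cell 5 had 2, and the 6 T-type cells had none, which allows up to 0.0401 CPM. The highest *Ptgs2* cell, NR cell 1, thus had no *Ptges* read. Each cell with *Ptges* reads also had *Ptgs2* reads, which were found in 15 cells.

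The *Ptges* level was 150.9 in NR, 7.97 in S-type and 0.173 in M-type cells. Against NR it was lower by a log2 ratio of -4.24 in S-type (-4.66 to -3.86) and -9.77 in M-type (-12.8 to -7.91), the latter from 2 reads. With T-type cells set to 3 reads in all, the T-type level lay at least 243-fold lower than the NR level. Without NR cell 4 it lay at least 76.1-fold lower. Beside the S-type level it lay at least 12.8-fold lower, and at least 1.57-fold lower without S-type cell 4. *Ptges* passed the limit of 5 cells through cells of the other types alone, so its T-type ratios lend no weight to a count of lower genes. NR cell 4, with the most *Ptges*, was also the cell with most microglia markers, 263 CPM, whereas NR cell 5 had 0.792 CPM. Without the cells high in microglia markers the *Ptges* ratio to NR was -3.57 for S-type and -9.10 for M-type, and T-type cells were at least 135-fold lower. Only NR cells 3 and 5 then remained, at 8.63 and 181 normalized counts, so this NR level rested mainly on NR cell 5.

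*Ptges3* encodes p23, a co-chaperone of HSP90 also described as the cytosolic PGE2 synthase (chr10:128058954-128077272, plus strand). It had 64140 reads and at least 230 in each cell. Its values were 455 to 3627 in S-type cells with a median of 1124, 736 to 3366 in M-type, and 721 to 2025 in NR cells. In the T-type cells they were 1965, 68071, 1265, 420, 4118 and 1994, so that T-type cell 2 exceeded the next cell 16.5-fold and held 87.5% of the T-type level. Of 75-base windows of its longest transcript, 21.2% also occurred in other genes, mainly the pseudogene *Ptges3-ps*, so part of its reads may be uncertain.

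S-type, M-type and NR cells were alike in *Ptges3*, at 1458, 1463 and 1478, and the log2 ratio to NR was -0.02 for S-type (-0.06 to 0.02) and -0.01 for M-type (-0.05 to 0.02). Leaving out 1 cell moved these between -0.53 and 0.17 and between -0.58 and 0.15. The T-type level of 12972 gave 3.15 against S-type and 3.13 against NR, but 0.42 and 0.40 without T-type cell 2, which is the cell with the fewest genes read. With mean CPM in place of size factors the T-type ratios were 1.65 and 1.61, beside medians of -0.44 and -0.45 over all genes.

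Of 13 genes of HSP90 and its co-chaperones, listed for their work with p23, all were read in at least 5 cells. T-type against S-type, 2 were at least 2-fold higher and 3 lower, beside 26.0% higher and 32.2% lower of all genes, with a median log2 ratio of 0.39. Against NR, 6 were higher and 3 lower, beside 28.6% and 32.4% of all genes, with a median of 0.41. *Hsp90ab1*, a constitutive HSP90, was at 71632 in T-type and 12816 in S-type cells, a ratio of 2.48, and no less than 2.10 with any 1 cell left out. *Hsp90aa1*, the inducible HSP90, had a ratio of 1.03, or 0.26 without T-type cell 2, and *Ppid*, a cyclophilin, 0.51.

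*Ptgds* encodes the lipocalin-type PGD2 synthase, known from leptomeninges, choroid plexus and oligodendrocytes (chr2:25466709-25470046, minus strand). It had 189 reads in 9 cells, with NR cell 2 highest at 99 reads and S-type cell 4 next at 41. T-type cell 6 had the 4 reads of its type. The level was 13.7 in NR, 8.24 in S-type, 2.03 in M-type and 0.427 in T-type cells. The T-type ratio was -4.27 to S-type (-6.20 to -2.83) and -5.00 to NR (-6.90 to -3.60), at most -2.66 and -2.83 with any 1 cell left out. M-type against NR was -2.75, but -0.58 without NR cell 2, and S-type against NR was -0.73 with no stable direction, between -2.34 and 1.44. Markers of leptomeninges and fibroblasts, 13 genes led by *Ogn*, *Col1a2* and *Foxc1*, summed to 228 to 810 CPM in NR cells and 194 to 781 CPM in S-type cells, and reached 1452 CPM in T-type cell 6 and 1003 CPM in M-type cell 4, with *Aldh1a2*, *Crabp2* and *Slc22a6* at 0.

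*Ptgfrn* encodes an immunoglobulin superfamily protein that binds the PGF2α receptor and tetraspanins such as CD9 and CD81 (chr3:101040232-101110278, minus strand). It had 23011 reads. The S-type cells ranged from 358 to 5259 with a median of 766, with cell 2 far above the next at 1221. The T-type cells had 120, 3.63, 16.4, 726, 599 and 566. The M-type values were 451, 637, 1416, 282 and 147, and the NR values 1297, 212, 1875, 85.5 and 192. Only T-type cells 2 and 3, with 1 and 3 reads, had under 10 reads, and these were the cells with the fewest genes read.

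The mean *Ptgfrn* level was 1477 in S-type, 732 in NR, 587 in M-type and 338 in T-type cells. T-type was lower than S-type by a log2 ratio of -2.13 (-2.20 to -2.05), and by -1.09 without S-type cell 2. T-type against NR was -1.11, but -0.40 without NR cell 3. S-type against NR was 1.01, just past 2-fold, but -0.02 without S-type cell 2, and M-type against NR was -0.32. Neighbours in this order did not differ beyond the spread between their cells. Over the 22 cells, *Ptgfrn* and *Ptgfr* had a Spearman's rho of 0.35, a description in which the cells share their depth with both genes.

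Among 7 tetraspanin and related partners of *Ptgfrn*, *Cd81* was the most read and nearly level over the types, at 17348 in NR, 18043 in S-type, 11441 in M-type and 15982 in T-type cells. T-type against S-type, 2 of the 7 were at least 2-fold higher and 3 lower, beside 26.0% and 32.2% of all genes. *Cd63* was 1.34 higher on the log2 scale in T-type than in S-type cells, and 0.30 higher without T-type cell 2. *Cd151* differed by -0.36.

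Counted together but without *Ptges*, which passed the limit of 5 cells through the other types alone, T-type cells were at least 2-fold lower than S-type cells in 5 of 7 compared genes (*Ptgfr*, *Ptgs1*, *Ptgs2*, *Ptgds* and *Ptgfrn*) and higher in 1, *Ptges3*. Over all 12719 genes read in 5 or more cells (58.2% of them 2-fold apart), 32.2% were lower and 26.0% higher by this limit. The split of all genes depended on the scale: it was 37.8% lower and 16.7% higher with mean CPM, and 51.9% and 8.52% with the mean of log2(normalized count + 1). The 7 genes had a median log2 ratio of -2.13, beside -0.07 over all genes. The choice of *Ptgfr* from this contrast is part of that count. Against NR, T-type cells were lower in the same 5 genes and higher in *Ptges3*, beside 32.4% lower and 28.6% higher of all genes (61.0% apart), with a median of -3.23 beside -0.05. With mean CPM the split of all genes was 37.9% lower and 19.3% higher, and with the mean of log2(normalized count + 1) 48.5% and 12.6%. Both contrasts use the same T-type cells.

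Of the 8 compared genes, *Ptges* included, S-type cells were at least 2-fold lower than NR in 3, *Ptgs1*, *Ptgs2* and *Ptges*, and higher in *Ptgfrn*. Over all genes 22.4% were lower and 25.1% higher (47.5% apart). M-type cells were lower in 4, *Ptgs1*, *Ptgs2*, *Ptges* and *Ptgds*, and higher in 0, beside 28.1% and 19.8% (47.9% apart). The medians of the 8 were -0.59 and -0.84, beside 0.03 and -0.20 over all genes. Without *Ptges*, which had 2 reads in M-type cells, 2 of 7 genes were lower in S-type and 3 of 7 in M-type cells. The medians were then -0.46 and -0.52. The contrasts with NR share the 5 NR cells, so that the values of *Ptgs1*, *Ptgs2* and *Ptges*, lower in each of them, are not independent. In no contrast did the cells of the types fail to overlap for any of the 8 genes, beside 0.771% of all genes for T-type against S-type, 0.991% for T-type against NR, 0.409% for S-type against NR and 0.598% for M-type against NR.

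**Figure D4:**
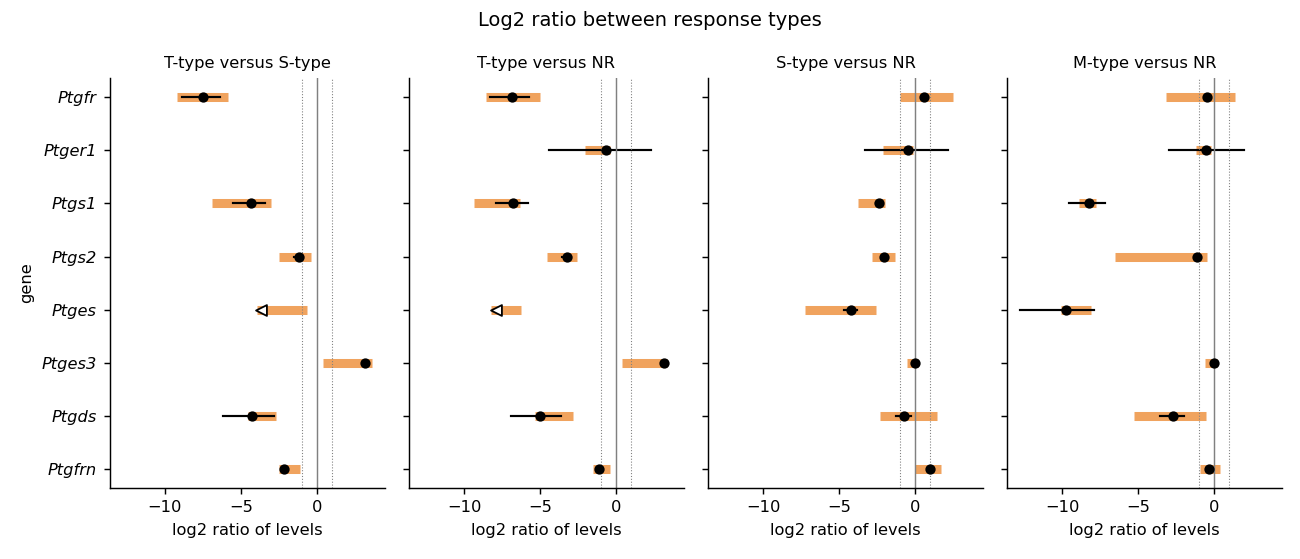
Log2 ratio of levels for the 8 compared genes in 4 contrasts (points). Black lines are 95% counting intervals, and orange is the range with any 1 cell left out. Dotted lines mark 2-fold. Open triangles mark ratios where T-type cells had no read and were set to 3 reads over their summed size factors. *Ptger1* has no ratio in T-type versus S-type, where both types had at most 3 reads. The *Ptgs1* ranges lie left of 0 in every panel, while those of *Ptgfr* cross 0 in S-type and M-type versus NR.

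Upstream of the cyclooxygenases, 11 of 20 genes of arachidonate release were read in at least 5 cells. T-type against S-type, 3 of these were at least 2-fold higher and 4 lower, beside 26.0% and 32.2% of all genes. Against NR 3 were higher and 3 lower, beside 28.6% and 32.4%. The most read were *Pla2g7*, a platelet-activating factor hydrolase, and the secreted phospholipases *Pla2g12a* and *Pla2g5*. *Pla2g7* was at 1131 in NR, 1932 in M-type, 1169 in S-type and 1330 in T-type cells. *Pla2g5* was at 656 in NR, 294 in M-type, 106 in S-type and 9.64 in T-type cells. Its T-type ratio was -3.46 to S-type, at most -2.56 with any 1 cell left out, and -6.09 to NR, at most -5.38. *Pla2g4a*, the cytosolic phospholipase that supplies both cyclooxygenases, was named after its values were seen. It was at 282 in NR, 536 in M-type, 93.6 in S-type and 4.84 in T-type cells. M-type cell 2 held 93.3% of the M-type level, and NR cell 1 held 85.3% of the NR level. The T-type ratio of *Pla2g4a* to S-type was -4.27, from -5.89 to -3.91.

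Of the other terminal synthases, 7 of 8 were read in at least 5 cells. By at least 2-fold, 3 were higher and 3 lower in T-type than in S-type cells, beside 26.0% and 32.2% of all genes. *Cbr1*, a carbonyl reductase that can turn PGE2 into PGF2α, was read in all 22 cells at 143 in NR, 77.1 in M-type, 104 in S-type and 105 in T-type cells. *Ptges2*, the second membrane PGE2 synthase, was 3.20 higher on the log2 scale in T-type than in S-type cells, 1.23 without T-type cell 2. *Akr1b8*, an aldo-keto reductase, had 97.1% of its S-type level in cell 5 and 98.6% of its NR level in cell 4. *Tbxas1* (thromboxane synthase) and *Hpgds* (hematopoietic PGD2 synthase) were chosen after their values were seen as enzymes known from microglia. They had 366 of 371 and 170 of 293 reads in NR cells 1, 2 and 4. In that order, these cells had 250, 1 and 115 *Tbxas1* reads and 126, 16 and 28 *Hpgds* reads. M-type cell 2 had 72 *Hpgds* reads at 0.420 CPM of microglia markers, and S-type cell 4 had 30 at 0.572 CPM.

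Downstream, 6 of 8 genes of prostaglandin breakdown and transport were read in at least 5 cells, and the leading 3 were reductases read in all 22: *Ptgr2*, *Ptgr1* and *Zadh2*. *Ptgr2* was at 3620 in NR, 474 in M-type, 1201 in S-type and 4199 in T-type cells. It was lower in M-type than in NR cells by a log2 ratio of -2.93, between -3.73 and -2.15 with any 1 cell left out. *Ptgr1* was 0.75 higher in T-type than in S-type cells, but -2.51 without T-type cell 2. Of 9 other eicosanoid enzymes, led by *Ephx1*, *Cyp2j6* and *Lta4h*, 2 were at least 2-fold higher and 3 lower in T-type than in S-type cells. The shares of all genes were 26.0% and 32.2%. *Lta4h*, which makes leukotriene B4, was higher in M-type than in NR cells by 1.66, at least 1.34 with any 1 cell left out.

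The genes through which the receptors signal were read far more than the receptors. The 36 listed genes covered G proteins, phospholipase C, inositol trisphosphate receptors, adenylyl cyclase, protein kinase A, arrestins and receptor kinases. Of these, 33 were read in at least 5 cells. T-type cells were at least 2-fold higher than S-type cells in 4 and lower in 13, beside 26.0% and 32.2% of all genes. *Gnaq*, the G protein of the PGF2α receptor, was at 5314 normalized counts in NR, 7784 in M-type, 6968 in S-type and 14590 in T-type cells. Its T-type ratio to S-type was 1.07, and -0.29 without T-type cell 2. *Gnas*, the G protein of EP2 and EP4, was 2.30 higher in T-type than in S-type cells and at least 1.75 with any 1 cell left out, and *Prkar1a*, a regulatory subunit of protein kinase A, differed by -0.67. The type with 7 *Ptgfr* reads thus had *Gnaq* reads in every cell.

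The genes whose values ordered the 22 cells most like each prostaglandin gene are given as a description, by Spearman's rho among the 10749 genes read in 11 or more cells. For *Ptgfr* these were *Rhebl1* (0.82), *Ankrd50* (0.80) and *Fam220a* (0.80). For *Ptgs1* they were *Lrrc14b* (0.73), *Ttc9c* (0.70) and *Afg3l2* (0.70), and for *Ptgs2* *Maml3* (0.82), *Hsd17b7* (0.77) and *Zfp266* (0.76). For *Ptges3* they were *Hnrnpk* (0.80), *Hspa8* (0.77) and *Gm10012* (0.75), for *Ptgfrn* *Pigh* (0.83), *Whsc1* (0.79) and *Itpripl2* (0.76), and for *Ptger1*, from its few reads, *Asb8* (0.76), *Rnf121* (0.72) and *Akap6* (0.70). No prostaglandin gene was among the 3 nearest of another. The 22 points share their library depth between the genes, and no test was made.

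Other cell types were checked beside these results. Oligodendrocyte lineage markers (*Olig1*, *Olig2*, *Pdgfra* leading, with *Sox10*, *Opalin* and *Ermn* at 0) summed to 34.0 to 3329 CPM over the cells, and mural markers (*Acta2*, *Tagln*, *Pdgfrb*, with *Rgs5* and *Myh11* at 0) to 33.9 to 9433. Endothelial markers (*Slco1a4*, *Kdr*, *Flt1*, with *Cldn5* and *Cdh5* at 0) reached 949 CPM, and neuronal markers (*Stmn2*, *Snap25*, *Syt1*, with *Slc17a7* at 0) 2048 CPM in S-type cell 2, which also had the highest *Ptgfrn* and the highest S-type *Ptgs1*. Their part in the values above was not tested.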

How the data were processed

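RNA of 22 single astrocytes was amplified in 2 rounds and sequenced as paired reads after stranded TruSeq preparation. Using STAR with GRCm38 after trimming, the authors aligned the reads, and they deposited raw counts of uniquely aligned exonic reads per gene, counted with VERSE and not normalized. The submitters' processing notes also name HTSeq and mm10. Versions, and whether counting used the strand, are not given in the sources used here. There were no molecular identifiers, so reads are not independent molecules.

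Size factors were medians of ratios over 3670 genes, and a level was the mean, within a type, of counts over size factors. A type without a read was set to 3 reads over its summed size factors, and no fold is given where both types had at most 3 reads. Genes read in 5 or more cells were compared, and 2-fold was the limit. The interval of a log2 ratio is the exact binomial (Clopper-Pearson) split of effective reads, (Σk/s)²/Σ(k/s²) with k reads and s the size factor of a cell. It replaced the plain split of reads, which was too narrow on simulated data where size factors differ. No test was run, as each type was 1 sample.

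The members and the gene lists were chosen with earlier results of these data known. Named were the 10 members, the 3 most read genes of each list, markers at 0 and, by Spearman correlation, the 3 genes most like each member read in at least 11 cells. Positions and exon lengths are from GENCODE vM21, promoter windows from RefSeq (GRCm38.p6, both cyclooxygenase genes matched). Alternatives were TMM factors (edgeR 4.0.16), CPM, pooled reads, log means, thinning to 2937786 reads, a pseudocount of 1, other filters and leaving out each cell. Python 3.11.15, NumPy 2.4.6, pandas 2.3.3, SciPy 1.17.1 and matplotlib 3.10.9 were used.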

Additional observations from a re-analysis of the deposited data

Results flagged for a closer look

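In 35 groups of 5 or 6 cells, 7 held a cell far from the others of its type by Dixon's criterion on log2(normalized count + 1). For values without ties at 0 chance gives about 1 in 20 groups, but 5 of the 7 were cells that alone held reads in their type, which meet the criterion whatever their count, so that rate is not a measure for them. On this log scale *Ptges3* in T-type cell 2, which held 87.5% of the T-type level, was not among the 7. *Ptger2* was at 0.609 normalized counts (1 read) in S-type cell 3 with 0 in the other 5. *Ptger4* was at 2.82 (2 reads) in T-type cell 1 with 0 in the others, and at 5.03 (7 reads) in NR cell 3 with 0 in the others. *Ptges* was at 0.864 (2 reads) in M-type cell 5, and *Ptgds* at 2.56 (4 reads) in T-type cell 6, again with 0 in the other cells of the type. *Ptges3* was at 3366 (4807 reads) in M-type cell 2, where the next cell had 2449 reads. *Ptgs1* was at 0.719 (1 read) in NR cell 3, below the other NR cells, of which the highest had 752 reads. The cells involved differed from gene to gene, apart from NR cell 3, which stood out in 2 genes.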

How the results depend on the processing

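The counts of genes at least 2-fold apart stayed within 1.5 times the value reported under every alternative that kept all cells, and without the 4 cells carrying over 100 CPM of microglia markers, an alternative chosen after seeing the data. With 1 cell left out they ran from 5 to 7 for T-type against S-type and for T-type against NR (7 with all cells, *Ptges* included), from 3 to 7 for S-type against NR (4 with all cells, 7 without S-type cell 4) and from 3 to 5 for M-type against NR (4 with all cells). The *Ptgfr* log2 ratio of T-type to S-type ran from -9.18 to -5.83 with 1 cell left out and was -3.31 as a mean of log2(normalized count + 1), which shrinks ratios of genes with many empty cells by its construction. The number of genes read in at least 11 of 22 cells went from 6 to 3 with at least 5 reads, to 3 with at least 10 reads and to 3 after thinning to the smallest library, since *Ptgfr*, *Ptger1* and 1 cyclooxygenase gene, *Ptgs1*, have low counts in many cells. Of 25 ratios past 2-fold, the sign turned for *Ptger4*, T-type against NR, at 0.033 after thinning, and for *Ptgfrn*, S-type against NR, which ran from -0.024 without S-type cell 2 to 1.73 without NR cell 3. Of 9 ratios under 2-fold, it turned under at least 1 alternative for 6: *Ptgfr* (-1.03 to 2.47), *Ptges3* (-0.53 to 0.17) and *Ptgds* (-2.34 to 1.44) in S-type, and *Ptgfr* (-3.20 to 1.37), *Ptges3* (-0.58 to 0.15) and *Ptgfrn* (-0.95 to 0.39) in M-type, all against NR. Apart from *Ptgfr* in T-type against S-type, 339 values of the ratios under single alternatives stayed within the counting interval and 250 moved outside it. For ratios without an interval, 1 log2 unit to either side was used. Most of the moves came with a cell left out. The order by level per kilobase changed for 2 genes, *Ptger1* and *Ptger4*, with the longest transcript as length. The median ratio of all genes, -0.07 for T-type against S-type and -0.05 for T-type against NR, was -0.44 and -0.45 with mean CPM, -0.55 and -0.52 with pooled reads and -1.09 and -0.93 with the mean of log2(normalized count + 1), so T-type ratios on those scales are read relative to it. Without the cells high in microglia markers it was 0.49 for S-type, 0.18 for T-type and 0.20 for M-type against NR.

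No paired analysis was possible because no test was run between types, and the labels give cells no shared animal or culture. Sample titles end in numbers of which some recur between types, but the labels do not say what these mark, and they were not used. For *Ptger1*, *Ptger2* and *Ptger4*, with 1 to 13 reads each in all, every ratio given had an interval that held 0 or was a bound. The 5 or 6 cells of a type are few for genes that a single cell can carry, as for *Ptges3* in T-type and *Ptgs2* in M-type cells.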
